A study of Mus musculus with 24 samples.

Results

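The 10 genes of the growth hormone and STAT5 axis followed here in the liver of mice fed phloridzin were the receptor Ghr, the transcription factors Stat5a and Stat5b, the feedback inhibitors Socs2 and Cish, the repressor Bcl6, and Mup3, Hsd3b5, Elovl3 and Serpina12. They were taken as every probe set of the array whose only annotated gene was one of these 10 genes. This gave 22 of the 34945 probe sets with 1 gene, of which 20 passed the filter on dim signal, and all 10 genes were among the 13100 genes tested. Gene symbols came from the platform annotation.

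Growth hormone reaches hepatocytes through its receptor, which activates the kinase JAK2, and JAK2 phosphorylates STAT5A and STAT5B. In the nucleus these bind DNA and induce genes such as Cish and Socs2, whose products dampen the receptor in return, while BCL6 is a repressor that can occupy the same DNA sites as STAT5. In male mice the hormone is secreted in pulses, and the pulses maintain the male pattern of many liver transcripts, among them major urinary proteins and steroid-metabolizing enzymes.

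The livers came from male BALB/c mice, 6 weeks old when obtained, that ate AIN-93G purified diet with 0% (control), 0.1%, 0.5% or 1.0% phloridzin for 14 days. Phloridzin is a plant glucoside that inhibits sodium-glucose cotransporters. The design gave 6 mice to each diet, caged in groups of 3 under a light cycle with darkness by day, and the mice were killed under pentobarbital anaesthesia. The labels do not say which mice shared a cage or at what clock time each liver was taken, and no genotype other than the strain was named. Liver RNA was read on 24 biotin-labelled 1-colour Affymetrix arrays, 6 per diet.

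Not every array seemed to read RNA of its own. Over 1463 well-measured genes, 13 of the 276 pairs of arrays differed by only 0.0436 to 0.0577 (SD of the log2 difference), another 8 by 0.108 to 0.137, and all remaining pairs by at least 0.164. Arrays that close were taken as readings of 1 RNA and entered as their mean, as 1 sample, giving 4 control samples (replicates 1 and 3 together, 2 and 4 together, 5, and 6), 3 samples at 0.1% (replicates 2, 4 and 5), 2 at 0.5% (replicates 1, 2, 3 and 6 together, and 4 and 5 together) and 2 at 1.0% (replicates 2, 3, 5 and 6 together, and 4). What was taken as one RNA carried the labels of 2 diets, on 0.1% replicates 1, 3 and 6 and 1.0% replicate 1, and was kept out of every comparison. The labels do not say whether RNA was pooled, hybridised again or mislabelled, so a sample may not be 1 mouse and the diet labels could not be checked. The join of 0.5% replicates 1 and 6 with 2 and 3 was the least certain. Their difference over the 200 most variable genes was 1.08 times that over the other genes with mean log2 above 7, by the median. By the SD it was 1.32 times, on the other side of the limit of 1.2. With these replicates kept apart, as 12 samples, 0 members passed, and Socs2 at 0.5% was 1.72 (limma adjusted p = 0.101). Values are given in the order of the samples listed above and are log2 of the quantile-normalized intensity with a floor of 8 intensity units (3.00 on the log2 scale). The tests of diet had 7 residual degrees of freedom, and their p-values measure only the spread between these RNA samples. The hepatocyte markers Alb (13.41 to 13.59), Apoa1 (13.86 to 14.06) and Ttr (13.52 to 13.67) were far above the floor in all 11 samples, so no defining marker of the labelled tissue was absent among these 3.

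Windows of Cish and Bcl6 hold the sequence that STAT5 dimers favour, and these stretches are shown because both were also the members that varied most between samples. The letters TTCNNNGAA were searched in the 300-base windows (250 bases before a start and 50 after it) of RefSeq, build GRCm38.p6. The motif has the same form on both strands, and overlapping matches were allowed. Windows were listed for 8 members, 12 windows in all, and 3 of them held a match. Socs2 and Elovl3 had no window listed and were not searched. Of the 32851 windows of that table, 8.3% held at least 1 match, 0.457% at least 2 and 0.0335% at least 3. Capitals mark the matches. The Cish stretch lies at chr9:107296654-107296683 on the plus strand, with matches that begin at the annotated start and 11 bases downstream of it. The Bcl6 stretches lie on the minus strand at chr16:23988933-23989002, near the upstream annotated start, and chr16:23981344-23981473, near the downstream one.
Cish: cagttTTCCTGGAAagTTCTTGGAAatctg
Bcl6, upstream start: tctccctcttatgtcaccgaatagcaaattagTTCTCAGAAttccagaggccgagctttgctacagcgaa
Bcl6, downstream start: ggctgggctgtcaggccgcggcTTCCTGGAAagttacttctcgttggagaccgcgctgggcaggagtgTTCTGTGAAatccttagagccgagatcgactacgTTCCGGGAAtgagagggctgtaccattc
The windows of Ghr, Stat5a, Stat5b, Mup3, Hsd3b5 and Serpina12 held no match to these letters.

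No member passed the test against the control diet at any dose. With limma and Benjamini-Hochberg adjustment over the 13100 genes, 0 of the 10 members had an adjusted p below 0.05 at 0.1%, 0.5% or 1.0% phloridzin, where 0.0229%, 0.00763% and 0.0153% of all genes did. At an unadjusted p below 0.05 the members numbered 2 at 0.1% (Socs2 and Elovl3), 2 at 0.5% (Socs2 and Serpina12) and 1 at 1.0% (Mup3), where 8.44%, 5.21% and 6.47% of all genes passed. The median log2 difference of the 10 members was -0.10, 0.06 and 0.01 at the 3 doses, against 0.00, 0.01 and -0.02 over all genes. The members did differ in how steady they were. Cish, Bcl6 and Socs2 spread over more than 2 log2 units, with SDs over the 11 samples of 0.969, 0.835 and 0.770 that exceeded those of 99.7%, 99.4% and 99.1% of genes, while Hsd3b5 had an SD of 0.055, below which only 0.2% of genes lay. These ranks took no account of signal level. Repeat arrays of 1 RNA differed by at most 0.463, 0.408 and 0.463 on Cish, Bcl6 and Socs2, and by at most 0.035 on the bright Hsd3b5.

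**Figure D1:**
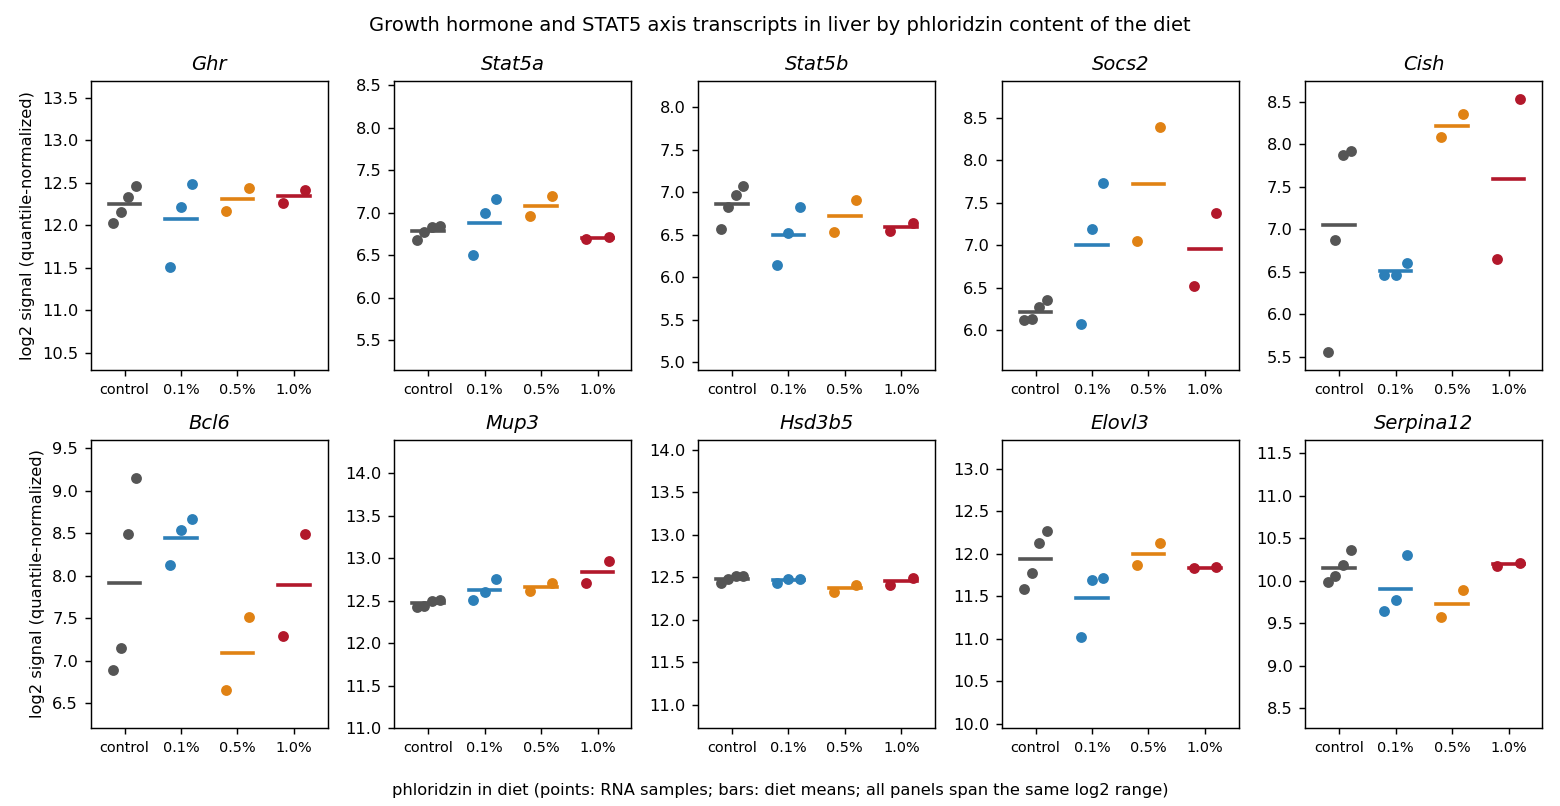
Log2 signal (quantile-normalized, y axis) of the 10 members in each RNA sample (points) by phloridzin content of the diet (x axis: 4 control samples, then 3, 2 and 2 samples at 0.1%, 0.5% and 1.0%), with diet means as bars. Every panel spans the same number of log2 units, so the wide scatter of Socs2, Cish and Bcl6 and the narrow band of Hsd3b5 (SD 0.055) can be compared by eye.

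Ghr encodes the growth hormone receptor and its 3 probe sets differed in their layout over the samples. The brightest, 1417962_s_at, read 12.47, 12.34, 12.16 and 12.02 in control livers, 12.21, 12.48 and 11.51 at 0.1%, 12.17 and 12.44 at 0.5%, and 12.27 and 12.42 at 1.0%. Only 0.1% replicate 5 lay clearly outside the control range, below it. The log2 difference from control was -0.18 ± 0.181 at 0.1% (SE, 95% interval -0.57 to 0.21), 0.06 ± 0.206 at 0.5% (-0.38 to 0.50) and 0.10 ± 0.206 at 1.0% (-0.35 to 0.54). By limma the adjusted p was 0.800, 0.995 and 0.960 at these doses. Under other scalings the estimates at 0.5% and 1.0% were below 0, as was the median of all genes. Relative to that median the estimates stayed at 0.039 to 0.051 and 0.113 to 0.119. At 0.1% the estimate was 0.10 without replicate 5 and -0.39 without replicate 4.

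The second Ghr probe set, 1451501_a_at, read 11.54, 11.51, 11.55 and 11.48 in control livers, 11.38, 11.29 and 10.98 at 0.1%, 11.34 and 11.46 at 0.5%, and 11.44 and 11.47 at 1.0%. All 7 phloridzin samples were below all 4 control samples, an arrangement found for 0.553% of the 22780 probe sets of 1 gene that passed the filter. The gap to the control range was small at 0.5% and 1.0%, and the widest difference, at 0.1%, was -0.30 ± 0.098 with an adjusted p of 0.416 in the limma fit over probe sets. The third, 1451871_a_at, read 8.92, 8.76, 8.40 and 8.26 in control livers, 8.33, 8.16 and 7.61 at 0.1%, 8.33 and 8.50 at 0.5% and 9.19 and 8.83 at 1.0%. Its difference was -0.55 ± 0.190 at 0.1% and 0.43 ± 0.215 at 1.0%, with adjusted p of 0.424 and 0.786. The 3 probe sets thus had 1 sign in common at 0.1% and mixed signs at 1.0%.

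Stat5a and Stat5b encode the 2 closely related transducers, of which STAT5B is the more abundant in mouse liver. Stat5a (1421469_a_at) read 6.68, 6.77, 6.83 and 6.85 in control livers, 7.16, 6.51 and 6.99 at 0.1%, 7.20 and 6.96 at 0.5% and 6.69 and 6.72 at 1.0%. Both 0.5% samples were above all control samples and the other doses overlapped them. The difference at 0.5% was 0.29 ± 0.182 (95% interval -0.10 to 0.69, limma adjusted p = 0.985) and was 0.175 without replicates 1, 2, 3 and 6, and repeat arrays of 1 RNA differed by as much as 0.375 on this probe set. The dimmer Stat5a probe set, 1450259_a_at, ranged from 3.00 to 4.49 in phloridzin samples, against 4.02 to 4.61 in control samples, and its difference at 0.5% had the opposite sign (-0.19 ± 0.361).

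Stat5b (1422103_a_at) read 6.82, 7.07, 6.56 and 6.97 in control livers, 6.52, 6.15 and 6.82 at 0.1%, 6.91 and 6.53 at 0.5% and 6.64 and 6.55 at 1.0%. The groups overlapped at 0.1% and 0.5%, and the 2 samples at 1.0% lay on either side of the lowest control sample. The estimates were all below 0, at -0.36 ± 0.185 for 0.1%, -0.14 ± 0.210 for 0.5% and -0.26 ± 0.210 for 1.0%, with limma adjusted p of 0.612, 0.985 and 0.837. At 0.1% the estimate was -0.19 without replicate 4, and at 0.5% it was 0.053 without replicates 4 and 5. The second Stat5b probe set, 1422102_a_at, had -0.18 ± 0.227, -0.29 ± 0.258 and 0.24 ± 0.258 at the 3 doses. The intervals for 1422103_a_at reached from -0.76 to 0.04, -0.59 to 0.31 and -0.71 to 0.19, so differences of that size in either transducer were not resolved.

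Socs2, a SOCS-box protein that targets the activated receptor for degradation, was the member with the largest estimated difference from control. Its brightest probe set, 1449109_at, read 6.27, 6.13, 6.12 and 6.35 in control livers, 6.07, 7.73 and 7.19 at 0.1%, 8.39 and 7.05 at 0.5% and 7.38 and 6.52 at 1.0%. Of the 7 phloridzin samples, 6 were above every control sample and only 0.1% replicate 2 was not; 1.85% of all genes had at least 6 of 7 phloridzin samples above all controls. The estimate was 0.78 ± 0.362 at 0.1% (1.72-fold, limma adjusted p = 0.588), 1.50 ± 0.410 at 0.5% (2.83-fold, 95% interval 1.54 to 5.21, adjusted p = 0.608) and 0.73 ± 0.410 at 1.0% (1.66-fold, adjusted p = 0.773). The highest dose was thus not the one with the largest estimate, and the 1.0% against 0.5% difference of -0.77 ± 0.474 was not resolved either (95% interval -1.79 to 0.25).

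A second probe set, 1418507_s_at, read 5.55, 5.17, 4.58 and 4.73 in control livers, 5.33, 6.81 and 6.21 at 0.1%, 7.29 and 6.04 at 0.5% and 6.74 and 5.79 at 1.0%. The same 6 phloridzin samples were above all controls, and the 7 phloridzin samples stood in the same order from highest to lowest on both probe sets. Its estimates were 1.11 ± 0.379, 1.66 ± 0.430 and 1.26 ± 0.430 at the 3 doses, with adjusted p of 0.418, 0.573 and 0.704 in the limma fit over probe sets. Of the other Socs2 probe sets, 1442586_at ranged from 4.17 to 4.90 in phloridzin samples and from 3.40 to 4.90 in control samples, and 1446085_at was at or near the floor except in 0.5% replicates 1, 2, 3 and 6 (4.47), 0.5% replicates 4 and 5 (4.81) and 1.0% replicates 2, 3, 5 and 6 (4.10). The last 2, 1438470_at and 1441476_at, were under the filter, and 1441476_at was at the floor in every sample.

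**Figure D2:**
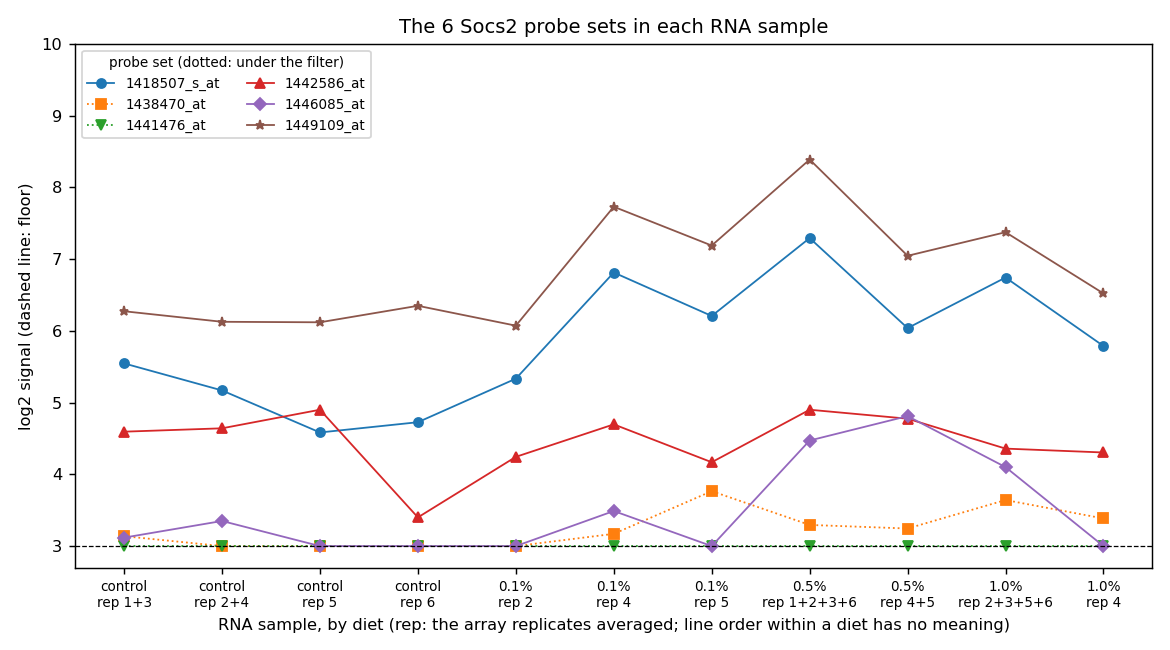
Log2 signal (y axis) of the 6 Socs2 probe sets in each of the 11 RNA samples (x axis, by diet); dotted lines are the 2 probe sets under the filter and the dashed line is the floor. The upper 2 probe sets peak together in 0.5% replicates 1, 2, 3 and 6 (8.39 and 7.29) while 0.1% replicate 2 (6.07 and 5.33) lies below the control range on the upper one and inside it on the other.

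The Socs2 estimate at each dose moved with 1 sample. Without 0.5% replicates 1, 2, 3 and 6 the difference at 0.5% was 0.83, and without replicates 4 and 5 it was 2.17, the remaining sample being assumed to vary like the other diets. At 0.1% it was 0.41 without replicate 4 and 1.24 without replicate 2, and at 1.0% it was 0.30 without replicates 2, 3, 5 and 6 and 1.16 without replicate 4. These samples also stood apart in other measures. The sample of 0.5% replicates 1, 2, 3 and 6 had an acute-phase score, the mean deviation of 23 acute-phase genes from the control mean, of 1.21, against -0.13 to 0.09 in control samples. Its Saa2, a serum amyloid, was 13.00, against 7.53 to 8.53 in control samples. Its clock score, over 16 genes, was -0.72, against -0.19 to 0.17 in control samples. The score averages the genes without regard to direction, so opposite changes cancel in it. In 0.5% replicates 4 and 5 it was 0.15, although the clock genes Nr1d1 (5.51) and Arntl (6.78) lay below and above all controls. The 0.1% replicate 4 had the widest gap between 3' and 5' actin probe sets, a measure of RNA integrity, at 2.30, against 1.33 to 1.51 in control samples. That sample also had the lowest Kupffer cell score (-0.42 over 10 genes) and the lowest sinusoidal endothelium score (-0.59 over 9 genes). The part of these differences in the Socs2 values was not tested, and in whole liver fewer cells of a type and less RNA per cell cannot be told apart.

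Cish, the STAT5-induced inhibitor that binds the phosphorylated receptor, varied most of all members. It read 6.87, 7.92, 5.56 and 7.87 in control livers, 6.46, 6.61 and 6.47 at 0.1%, 8.08 and 8.36 at 0.5% and 8.53 and 6.66 at 1.0%. The control samples alone spanned 2.36 log2 units, the 3 samples at 0.1% lay within 0.14, both samples at 0.5% were above all controls, and the 2 samples at 1.0% were far apart. The difference from control was -0.55 ± 0.497 at 0.1%, 1.17 ± 0.563 at 0.5% (2.24-fold, 95% interval 0.97 to 5.19, limma adjusted p = 0.951) and 0.54 ± 0.563 at 1.0%. At 0.5% it was 0.667 without control replicate 5. At 1.0% it was 1.47 without replicate 4, -0.40 without replicates 2, 3, 5 and 6, and 0.038 without control replicate 5. At 0.1% it was -1.04 without control replicate 5, -0.26 without control replicates 2 and 4 and -0.28 without control replicate 6. Between doses, the 0.5% samples were 3.28-fold above the 0.1% samples (1.71 ± 0.594, limma adjusted p = 0.366).

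Bcl6, the repressor, showed the opposite layout. Its brightest probe set, 1421818_at, read 9.16, 7.15, 8.49 and 6.89 in control livers, 8.54, 8.67 and 8.13 at 0.1%, 6.66 and 7.52 at 0.5% and 7.29 and 8.49 at 1.0%. The control and 1.0% diets each held high and low samples, and no dose was separate from the controls. The difference was 0.52 ± 0.462 at 0.1%, -0.84 ± 0.524 at 0.5% and -0.03 ± 0.524 at 1.0%, with limma adjusted p of 0.762, 0.985 and 0.996. At 0.5% it was -0.40 without replicates 1, 2, 3 and 6, -1.27 without replicates 4 and 5 and -0.42 without control replicates 1 and 3. At 0.1% it was 0.94 without control replicates 1 and 3, 0.27 without control replicates 2 and 4 and 0.18 without control replicate 6. The 0.5% samples were below the 0.1% samples by a log2 difference of -1.36 ± 0.552 (limma adjusted p = 0.423). The second probe set, 1450381_a_at, read 6.21, 5.37, 6.03 and 5.01 in control livers, 6.21, 5.89 and 5.98 at 0.1%, 4.47 and 5.35 at 0.5% and 5.68 and 6.47 at 1.0%. The 5 lowest samples on it were the 5 lowest on the brightest probe set.

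Set side by side, the 2 genes sorted the samples in the same way from opposite ends. The 5 samples with the highest Cish (7.87 to 8.53) were also the 5 with the lowest Bcl6 (6.66 to 7.52), and the other 6 samples had Cish of 5.56 to 6.87 and Bcl6 of 8.13 to 9.16. The 5 were control replicates 2 and 4, control replicate 6, both 0.5% samples and 1.0% replicates 2, 3, 5 and 6, so they came from 3 diets including the control. Since the samples fall into separate clusters of fewer than 6 and of 6, no correlation was computed over them. The relation is a description of these 11 samples. The grouping was seen in these values and was not tested. The RNA with the labels of 2 diets, left out here, had Cish at 7.25 and Bcl6 at 7.61. On both genes it lay in the gap between the 5 samples and the other 6.

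**Figure D3:**
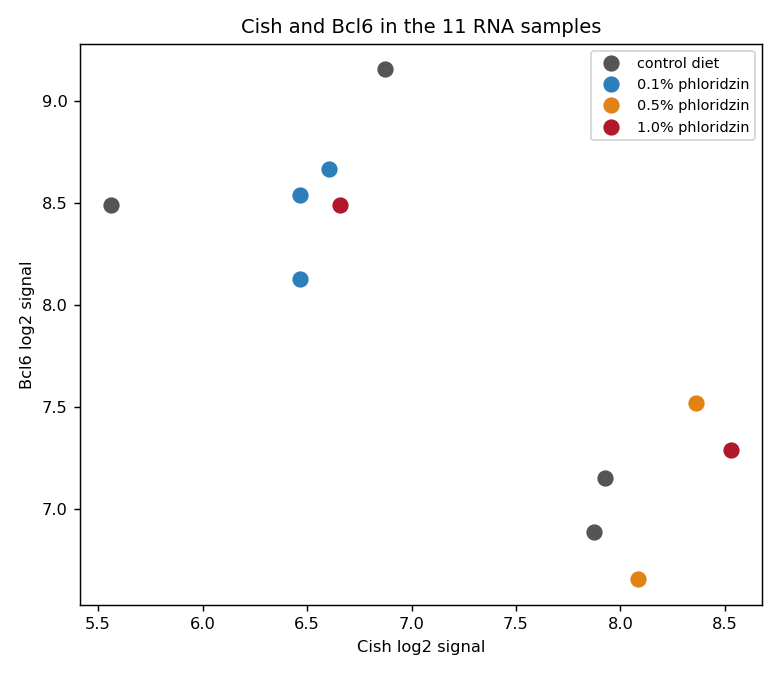
Bcl6 log2 signal (y axis) against Cish log2 signal (x axis) in the 11 RNA samples, coloured by diet. The 5 samples at lower right hold 2 of the 4 control samples, both 0.5% samples and 1 of the 2 samples at 1.0%; all 3 samples at 0.1% lie at upper left.

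Onecut1, a hepatocyte transcription factor that growth hormone induces in rat liver, was read as one of the other pathway genes. It was 5.72, 6.49, 5.50 and 5.89 in control livers, 5.48, 6.77 and 5.66 at 0.1%, 6.98 and 7.13 at 0.5% and 6.94 and 5.45 at 1.0%. The 3 highest samples were the 3 with the highest Cish, while 0.1% replicate 4 ranked 4 by Onecut1 and 8 by Cish. Its difference at 0.5% was 1.15 ± 0.410 (limma adjusted p = 0.745). Among all genes tested, the 2 whose centred profile over the 11 samples lay closest to Cish were Rgs3, a regulator of G-protein signalling, and Ikzf4, a zinc-finger factor, at root mean square differences of 0.455 and 0.470 log2 units. For Bcl6 they were Cacna1a (0.405) and Uggt2 (0.444), for Socs2 4930443O20Rik (0.351) and Mpp3 (0.424), and for Elovl3 Celsr1 (0.138) and B230307C23Rik (0.158). Several of these were dim, with Ikzf4, Cacna1a, Uggt2 and Mpp3 at the floor of 3.00 in at least 1 sample.

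Mup3 belongs to the major urinary proteins, pheromone carriers made in large amounts by male liver, and its genes are so alike that its 2 probe sets, both of the _x_at kind, may read other family members too. The bright one, 1427631_x_at, read 12.43, 12.51, 12.43 and 12.50 in control livers, 12.51, 12.76 and 12.61 at 0.1%, 12.71 and 12.61 at 0.5% and 12.97 and 12.71 at 1.0%. The lowest phloridzin sample, 0.1% replicate 2, lay within the control range and the other 6 were above it. At least 6 of 7 phloridzin samples lay above all controls for 1.85% of all genes. The difference was 0.15 ± 0.086 at 0.1%, 0.20 ± 0.098 at 0.5% and 0.37 ± 0.098 at 1.0% (1.29-fold, 95% interval 1.12 to 1.50, limma adjusted p = 0.629). At 1.0% it was 0.245 without replicates 2, 3, 5 and 6, no longer at an unadjusted p below 0.05, and at 0.1% it was 0.087 without replicate 4. The slope on the phloridzin content was 0.33 ± 0.094 log2 units per 1% of diet (limma adjusted p = 0.461); 8.8% of all genes had an unadjusted p below 0.05 for the slope.

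The dim Mup3 probe set, 1427249_x_at, did not match the bright one. It read 5.81, 5.91, 5.62 and 5.70 in control livers, 5.56, 5.94 and 5.68 at 0.1%, 4.82 and 5.47 at 0.5% and 6.36 and 6.14 at 1.0%. Its difference was -0.03 ± 0.195, -0.61 ± 0.221 and 0.49 ± 0.221 at the 3 doses, with adjusted p of 0.974, 0.740 and 0.754 in the limma fit over probe sets. Both Mup3 probe sets were above all controls at 1.0%, and at 0.5% they lay on opposite sides of them.

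Hsd3b5, a 3-ketosteroid reductase typical of male mouse liver whose gene also has near-identical relatives, was the steadiest member. It read 12.51, 12.43, 12.51 and 12.48 in control livers, 12.48, 12.48 and 12.43 at 0.1%, 12.33 and 12.41 at 0.5% and 12.41 and 12.49 at 1.0%. Both 0.5% samples were below all controls. The difference at 0.5% was -0.11 ± 0.079 (95% interval -0.28 to 0.06, limma adjusted p = 0.985; -0.074 without replicates 1, 2, 3 and 6), and the intervals at 0.1% and 1.0% reached from -0.17 to 0.13 and from -0.20 to 0.14.

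Elovl3 encodes an elongase of very long fatty acids that cycles daily and is male-biased in mouse liver. It read 11.58, 11.78, 12.13 and 12.27 in control livers, 11.02, 11.70 and 11.71 at 0.1%, 12.13 and 11.86 at 0.5% and 11.83 and 11.84 at 1.0%. Only 0.1% replicate 2 was below the control range. The difference at 0.1% was -0.46 ± 0.179 (limma adjusted p = 0.533) and at 0.5% and 1.0% it was 0.05 ± 0.203 and -0.10 ± 0.203. Without 0.1% replicate 2 the difference at 0.1% was -0.24 and no longer among those with an unadjusted p below 0.05. Relative to the median of all genes the estimate at 0.5% was 0.048, and -0.003 and -0.005 with arrays centred or unscaled. The clock score, in which opposite changes of its genes cancel, was 0.35 in 0.1% replicate 2 and 0.36 in replicate 5. Both were above the control range of -0.19 to 0.17. The part of clock genes in the Elovl3 values was not tested.

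Serpina12 encodes vaspin, a secreted serine protease inhibitor. Its bright probe set, 1421092_at, read 10.36, 10.06, 10.18 and 9.99 in control livers, 10.31, 9.77 and 9.64 at 0.1%, 9.57 and 9.90 at 0.5% and 10.18 and 10.21 at 1.0%. Both 0.5% samples and 2 of the 3 samples at 0.1% were below all controls, and both 1.0% samples were inside their range. The difference was -0.24 ± 0.150 at 0.1%, -0.41 ± 0.170 at 0.5% (1.33-fold lower, limma adjusted p = 0.886) and 0.05 ± 0.170 at 1.0%. Without 0.5% replicates 1, 2, 3 and 6 the difference at 0.5% was -0.25 and no longer among those with an unadjusted p below 0.05, and at 0.1% it was -0.44 without replicate 2 and -0.11 without replicate 5. Relative to the median of all genes the estimate at 1.0% was 0.073, and -0.078 and -0.081 with arrays centred or unscaled. The 1.0% samples were above the 0.5% samples by 0.46 ± 0.196 (limma adjusted p = 0.999). The dim probe set, 1421091_at, lay between the floor and 4.56. Its differences were -0.27 ± 0.302, -0.29 ± 0.342 and 0.83 ± 0.342 at the 3 doses. At 1.0% the adjusted p was 0.741 in the limma fit over probe sets. Both 1.0% samples (4.56 and 4.36) were above all controls on it, the highest of which was 4.10.

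**Figure D4:**
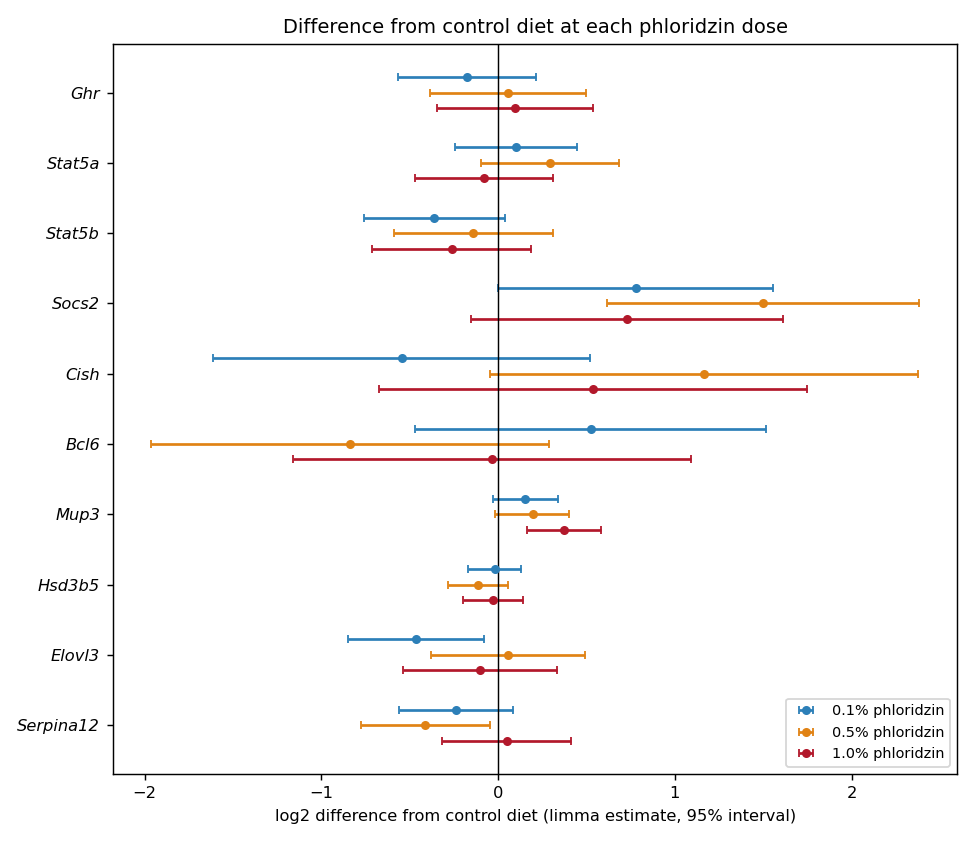
Log2 difference from the control diet (x axis, limma estimate with its 95% interval) for each member (y axis) at 0.1%, 0.5% and 1.0% phloridzin. The intervals that leave out 0 before adjustment are those of Socs2 at 0.1% and 0.5%, Mup3 at 1.0%, Elovl3 at 0.1% and Serpina12 at 0.5%; none passed after adjustment over 13100 genes.

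Samples per dose were few, and separation from all control samples was counted beside its share over all genes. At 0.5%, 4 members had every sample above all controls (Stat5a, Socs2, Cish and Mup3), where 9.16% of all genes did, and 2 had every sample below (Hsd3b5 and Serpina12), where 8.66% did. At 1.0% it was 2 members above (Socs2 and Mup3; 8.25% of genes) and 0 below (12.3%). At 0.1% it was 0 in either direction, where 4.2% of genes lay above and 3.69% below. Probe sets of 1 member often disagreed: of the 30 dose estimates from the 10 other probe sets that passed the filter, 19 had the sign of the brightest one, among them 7 of 9 for Socs2, 3 of 6 for Ghr and 1 of 3 for Mup3.

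Between the doses, 0 members passed after adjustment. At an unadjusted p below 0.05 they were 3 for 0.5% against 0.1% (Cish, Bcl6 and Elovl3; 10.7% of all genes), 0 for 1.0% against 0.1% (12.2%) and 1 for 1.0% against 0.5% (Serpina12; 4.21%). After adjustment the shares of all genes were 0%, 0.0153% and 0%. The F-test over the 4 diets gave 0 members after adjustment (0.0153% of genes) and 2 at an unadjusted p below 0.05, Mup3 and Socs2, where 9.24% of genes did; their adjusted p was 0.465 and 0.479 by limma. The slope gave 0 after adjustment (0% of genes) and 1, Mup3, before it.

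The rest of the pathway gave the same count of calls. Of 26 listed genes of growth hormone signalling, 24 were measured and 0 passed by limma at any dose. At an unadjusted p below 0.05, 4 were higher and 2 lower at 0.1%, 2 and 1 at 0.5%, and 0 and 1 at 1.0%, where 4.58% and 3.86%, 2.53% and 2.69%, and 2.47% and 3.99% of all genes were. Igf1, the circulating growth factor that the hormone induces in liver, read 11.89, 11.90, 11.69 and 11.81 in control livers, 11.71, 11.62 and 11.46 at 0.1%, 11.86 and 11.80 at 0.5% and 12.12 and 11.92 at 1.0%. Both 1.0% samples were above all controls, the nearer one narrowly (11.92 against 11.90), where 8.25% of all genes had every 1.0% sample above. The differences were -0.22 ± 0.091 at 0.1% (limma adjusted p = 0.555) and 0.20 ± 0.103 at 1.0% (adjusted p = 0.773).

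Among the other signalling genes, Ptpn1, a phosphatase of JAK2, was at 7.41 to 7.94 at 0.1%, against 7.18 to 7.45 in control samples, a difference of 0.42 ± 0.144 (limma adjusted p = 0.498). Jak1 was at 8.23 to 8.59 at 0.1%, against 8.58 to 8.73 (-0.28 ± 0.115, adjusted p = 0.555). Also higher at 0.1%, at an unadjusted p below 0.05, were Socs3 (1.12 ± 0.472), Sh2b1 (0.40 ± 0.170) and Cebpa (0.37 ± 0.153). Their limma adjusted p was 0.555, 0.560 and 0.555. At 0.5%, the hepatocyte factors Cebpa and Foxa1 lay on opposite sides of the control samples. Cebpa was at 9.47 to 9.95, against 10.15 to 10.41 in control samples (-0.56 ± 0.174, adjusted p = 0.677), and Foxa1 at 8.71 to 8.75, against 7.57 to 8.43 (0.72 ± 0.265, adjusted p = 0.779). At 1.0%, Socs6 was at 4.92 to 5.16, against 5.41 to 5.70 (-0.49 ± 0.224, adjusted p = 0.763), and Socs7 at 5.62 to 5.70, against 5.82 to 6.28 (-0.38 ± 0.186, adjusted p = 0.773).

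The sex-biased liver transcripts, which growth hormone pulses keep apart in male and female mice, also gave 0 calls by limma. Of 25 male-biased genes listed, 16 were measured, with median log2 differences of -0.10, -0.07 and 0.13 at the 3 doses. Those at an unadjusted p below 0.05 were 2 lower at 0.1%, 4 lower at 0.5%, and 1 higher and 1 lower at 1.0%. Of all genes, 4.58% were higher and 3.86% lower at that p at 0.1%, 2.53% and 2.69% at 0.5%, and 2.47% and 3.99% at 1.0%. Cyp7b1, an oxysterol hydroxylase, was at 12.50 to 12.66 at 0.1% and 12.43 to 12.61 at 0.5%, against 12.70 to 12.98 in control samples, with differences of -0.25 ± 0.086 and -0.29 ± 0.097 (limma adjusted p = 0.498 and 0.717). The steroid hydroxylase Cyp2d9 was at 12.67 to 12.72 at 0.5% and 12.72 to 12.73 at 1.0%, against 12.87 to 12.97, and Cyp4a12a, a fatty acid hydroxylase, was at 10.61 to 11.11 at 0.5%, against 11.07 to 11.30. In the other direction, Keg1 was at 10.79 to 11.09 at 1.0%, against 10.30 to 10.59 (0.49 ± 0.143, adjusted p = 0.718), and the organic anion transporter Slco1a1 at 11.43 to 11.45, against 10.46 to 11.40 (0.56 ± 0.288, adjusted p = 0.773). At 0.1%, the complement component C6 was at 10.17 to 10.68, against 10.53 to 10.97, and Susd4 at 6.96 to 7.17, against 6.63 to 6.86.

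Of 23 female-biased genes listed, 15 were measured, with median differences of -0.32, 0.03 and -0.08. At an unadjusted p below 0.05, 3 were lower at 0.1%, 1 higher and 2 lower at 0.5%, and 1 higher and 4 lower at 1.0%. The shares of all genes higher and lower were 4.58% and 3.86%, 2.53% and 2.69%, and 2.47% and 3.99% at these doses. Cyp2b10, a drug-metabolizing enzyme read near the floor, was 3.75 to 6.07 in control samples, 3.51 to 4.26 at 0.1%, 3.23 to 3.41 at 0.5% and 3.00 to 3.81 at 1.0%, with differences of -1.02 ± 0.444, -1.54 ± 0.503 and -1.46 ± 0.503 (limma adjusted p = 0.566, 0.709 and 0.747). Its relative Cyp2b9 was at 3.16 to 3.68 at 1.0%, against 4.20 to 5.09 (-1.31 ± 0.368, adjusted p = 0.718), and Hao2, a peroxisomal hydroxy acid oxidase, at 3.49 to 3.84, against 4.15 to 5.22. The fatty acid transporter Cd36 was at 4.63 to 5.33 at 0.1%, against 5.41 to 5.98, Cyp17a1, a steroid hydroxylase, at 3.00 to 4.17, against 4.20 to 4.77, and Fmo2 at 6.69 to 7.15 at 0.5%, against 5.85 to 6.57.

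Daily timing, inflammation and feeding are known to act on this axis, and their gene lists were read for the same samples; 0 genes of each passed by limma at any dose. Of 23 acute-phase genes, 10 were higher and 0 lower at an unadjusted p below 0.05 at 0.5%, where 0.1% had 0 and 2 and 1.0% had 1 and 1. Among all genes, 2.53% were higher and 2.69% lower at 0.5%, 4.58% and 3.86% at 0.1%, and 2.47% and 3.99% at 1.0%. Saa2 at 0.5% was 13.00 and 10.15, against 7.53 to 8.53 in control samples (3.67 ± 0.703, limma adjusted p = 0.423), and Orm2, an acute-phase glycoprotein, was 10.64 and 7.38, against 5.95 to 6.14 (2.98 ± 0.621, adjusted p = 0.423). Lower were Fgb at 0.1%, at 13.09 to 13.32, against 13.34 to 13.60 in control samples (-0.22 ± 0.089, limma adjusted p = 0.546), and 2 serum amyloid genes. Saa4 at 0.1% was 10.16 to 11.37, against 11.18 to 12.02 (-0.60 ± 0.247, adjusted p = 0.555). Saa3 at 1.0% was 5.71 to 6.24, against 6.35 to 7.09 (-0.62 ± 0.279, adjusted p = 0.763). Of the 2 samples at 1.0%, the one of replicates 2, 3, 5 and 6 had Saa2 at 10.96 and that of replicate 4 at 8.13. Socs2 and Cish were both above all controls in the 3 samples whose Saa2 exceeded 10, and Socs2 was also above them in 3 samples with Saa2 of 7.75 to 8.34. The part of inflammation in these values was not tested.

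Of the 16 clock genes measured, 2 were higher at 0.1% and 1 lower at 0.5% at an unadjusted p below 0.05, and 0 at 1.0%. Over all genes, 4.58% were higher and 3.86% lower at 0.1%, 2.53% and 2.69% at 0.5%, and 2.47% and 3.99% at 1.0%. Nr1d1, a clock repressor, was 3.56 and 5.51 at 0.5%, against 6.46 to 6.69 in control samples (-2.06 ± 0.425, limma adjusted p = 0.423), and Per1 was 4.60 to 5.43 at 0.1%, against 3.00 to 4.23 (1.54 ± 0.367, adjusted p = 0.470). Per3 at 0.1% was 5.21 to 6.53, against 4.66 to 5.48. Clock at 1.0% was 6.79 to 7.14, against 7.10 to 7.36, and Nfil3 was 6.59 to 7.21, against 7.06 to 7.98. Of the 14 fasting and insulin genes measured, 1 was higher and 3 lower at 0.1%, and 2 were lower at 0.5% and at 1.0%. The shares over all genes are those given for the clock genes. Igfbp1, an insulin-repressed binding protein of the IGFs, was 6.97 and 7.52 at 1.0%, against 8.16 to 9.52 in control samples (-1.69 ± 0.431, adjusted p = 0.618). Its estimates were also below 0 at 0.1% (-0.98 ± 0.380, limma adjusted p = 0.533) and at 0.5% (-0.67 ± 0.431, adjusted p = 0.985). Foxo1 at 1.0% was 7.23 to 7.31, against 7.52 to 7.69 (-0.335 ± 0.127, limma adjusted p = 0.759). Trib3 was 6.72 to 7.48 at 0.1% and 4.77 to 5.79 at 0.5%, against 5.79 to 6.35. Tat, tyrosine aminotransferase, was 10.65 to 11.04 at 0.1% and 10.66 to 10.71 at 0.5%, against 11.02 to 11.26. Its differences were -0.305 ± 0.111 and -0.49 ± 0.125 (limma adjusted p = 0.511 and 0.595). Among the markers of other cell types, 3 of 5 cholangiocyte genes were measured, all 3 at the floor in at least 1 sample, and their score was -0.25 to 0.21 in control samples, 0.03 to 0.80 at 0.1%, 0.70 to 0.77 at 0.5% and 0.05 to 0.62 at 1.0%. The neutrophil score, over 7 of 9 genes, was highest in 0.5% replicates 4 and 5, at 0.88, against -0.32 to 0.22 in control samples. Their part in the members' values was not tested.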

How the data were processed

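The deposited file holds intensity values of 45101 probe sets on a linear scale, per the file headers as a series matrix of the authors; how these intensity values were summarised and normalized is not given in the sources used here. Array medians ranged from 9.49 to 18. Here the intensities were quantile-normalized, floored at 8 and turned to log2. The dimmest 40% of probe sets were dropped, and the brightest remaining probe set stood for a gene. Of the values of the 13100 genes tested, 5.28% were at the floor. Arrays were joined as 1 RNA where the SD of their log2 difference over genes above 9 was under 0.08. The resulting sets were then compared by their median absolute difference over the 200 most variable genes above 7. They were joined where it was under 1.2 times that over the other genes above 7. Precision is limited by the number of distinct RNA samples, which is lower than the number of arrays.

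The diets were fitted together with limma 3.58.1 in R 4.3.3 (trended eBayes, two-sided, Benjamini-Hochberg over all genes, called at 0.05), tested on simulated data. The members and lists were chosen with earlier results of these data known. Named genes were all probe sets of the members, the 3 lowest p per dose of the growth hormone and sex-biased lists, and the 2 lowest of the others. Also named were the remaining growth hormone pathway genes at an unadjusted p below 0.05, and the 2 nearest profiles of the 4 members with the largest SD over samples. Besides the 34945 probe sets with 1 gene, 932 had several and 9160 none listed. Replicate numbers did not pair the samples: of 36 same-numbered pairs of arrays, 5 had deviations correlated above 0.1 (range -0.155 to 0.417). Alternatives covered scaling, floor, filter, probe sets, array repeats, weights and leaving out each sample.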

Additional observations from a re-analysis of the deposited data

Results flagged for a closer look

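The RNA that appeared under the labels of 2 diets, left out of every comparison, had Stat5a at 6.966, above the control range of 6.68 to 6.85, and Mup3 at 12.655, above the control range of 12.43 to 12.51.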

How the results depend on the processing

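With RNA repeats averaged, 0 members passed in any comparison under 24 settings, and the lowest adjusted p was 0.0699 (Socs2 at 0.5%, only repeat hybridisations averaged, 1.72). Treating all 24 arrays as separate mice, which counts 1 RNA up to 4 times, gave 3, 2 and 1 members against control at 0.1%, 0.5% and 1.0%, 6, 2 and 2 for 0.5% against 0.1%, 1.0% against 0.1% and 1.0% against 0.5%, 7 by the F-test and 1 for the slope; with a replicate block added the counts were 3, 2 and 1, then 7, 2 and 2, then 7 and 1. Members past the threshold with all 24 arrays included Socs2 at 0.5% (1.73, adjusted p = 0.00144) and Mup3 at 1.0% (0.41, adjusted p = 0.00135). Scaling moved the median of all genes, to -0.16, -0.19 and -0.35 at the 3 doses with no scaling and -0.08, -0.09 and -0.20 with arrays centred on their median. Before that shift is taken off, signs turned for Ghr at 0.5% (-0.052 centred, -0.15 unscaled, -0.04 with all 24 arrays, with or without the block) and at 1.0% (-0.079, -0.24 and -0.079, and -0.052 with the 2-label RNA under both labels), Stat5a at 0.1% (-0.008 and -0.09), Elovl3 at 0.5% (-0.10 and -0.20), Serpina12 at 1.0% (-0.27 and -0.43) and Mup3 at 0.1% (-0.006 unscaled). With array weights they turned for Bcl6 at 1.0% (0.01), Serpina12 at 0.1% (0.004) and Hsd3b5 at 0.1% (0). Relative to that median Ghr at both doses, Stat5a (0.069 to 0.099) and Mup3 (0.15 to 0.155) at 0.1% kept their sign, Elovl3 at 0.5% (0.048, -0.003 and -0.005) and Serpina12 at 1.0% (0.073, -0.078 and -0.081) did not, nor did Hsd3b5 at 0.1% (-0.023, 0.001 and -0.001), and Mup3 at 1.0% was 0.39, 0.46 and 0.46 under quantile, centred and no scaling. Leaving out each sample gave -0.39 to 0.10 for Ghr at 0.1%, -0.08 to 0.20 for Ghr at 0.5%, -0.033 to 0.29 for Stat5a at 0.1%, -0.33 to 0.053 for Stat5b at 0.5%, -0.40 to 1.47 for Cish at 1.0%, -0.63 to 0.57 for Bcl6 at 1.0%, -0.072 to 0.01 for Hsd3b5 at 1.0%, -0.077 to 0.19 and -0.22 to 0.006 for Elovl3 at 0.5% and 1.0%, and -0.003 to 0.12 for Serpina12 at 1.0%. The cause was not tested. Keeping 0.5% replicates 1 and 6 apart from 2 and 3 (12 samples) was chosen after seeing the data and gave 0 members. With 2 samples at 0.5% and at 1.0%, intervals were wide, and low signal limits the dim probe sets.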
